A study of Mus musculus with 21 samples.

Results

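Hematopoietic stem cells (HSCs) isolated 21 days after a single administration of 5-fluorouracil (5-FU) were compared with HSCs of mice given PBS, to ask which transcripts still differed once the blood system had been given time to recover. The comparison took 6 of the 21 RNA sequencing libraries of the series, 3 in each group, chosen by their treatment and day labels and not by any measured value. The 5-FU group came from wild-type C57BL/6 mice that received 150 mg/kg of 5-FU intraperitoneally at 10 weeks of age and were analyzed at day 21. The PBS group came from mice of the same strain and age that received PBS in place of 5-FU and were analyzed at day 6, so that treatment, day of isolation and age at isolation differed together and cannot be told apart. Each library held 3000 to 3500 HSCs, sorted as CD150+ CD48- Flt3- cells within the lineage-negative Sca-1+ c-Kit+ gate. For HSCs at day 6 after 5-FU, the study widened the c-Kit gate to dim cells and left Mac-1 out of the lineage antibodies. This wider gate was not applied at day 21. Which gate the day 6 PBS libraries had is not stated. The part of the gate in values of day 6 was not tested. Reference libraries of the series, 3 per group, held HSCs at day 6 after the same single dose, HSCs of mice that had PBS (day 6) or 5-FU (day 21) on 3 occasions spaced by 21 days, and HSCs of untreated old mice.

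HSCs are rare bone marrow cells that mostly rest outside the cell cycle and can rebuild every blood lineage. 5-FU is a pyrimidine analog that blocks thymidylate synthase and is incorporated into RNA and DNA, and it kills dividing progenitors while sparing many resting HSCs. The surviving HSCs divide for some days to refill the marrow and later return to rest. Adhesion receptors and matrix proteins hold HSCs in their niche, and replication-dependent histone genes are transcribed in S phase.

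Total counts ranged from 22184885 to 26263228 in the PBS libraries and from 25270496 to 36669644 in the day 21 libraries, and a count of 3 was taken as the floor below which no level was read. More genes had at least 1 count in the PBS libraries (13683 to 13892) than in the day 21 libraries (13221 to 13431), although the latter were sequenced more deeply. The sort was reflected in both groups by Slamf1 (CD150) at 1107 to 1388 normalized counts, Procr (EPCR) at 662 to 798 and Kit at 28575 to 39955. Of 13 T and NK cell genes, 4 had 0 counts in all 6 libraries, Cd3g and Cd8a among them, and the list summed to 1460 to 1788 normalized counts after PBS and 1459 to 1884 at day 21. Of 14 B lymphoid genes, 4 had 0 counts, Pax5 and Ms4a1 among them, with sums of 1135 to 1403 and 1130 to 1270. Sums of 25 neutrophil and monocyte genes overlapped as well (5502 to 8134 and 6199 to 8812). Those of 20 erythroid genes did not, at 41908 to 42707 after PBS and 33189 to 36730 at day 21, and were mostly Car2, nor did those of 10 mast cell and basophil genes, at 63.1 to 113 and 135 to 310, of which 5 genes had 0 counts in all 6 libraries. The part of other cell types in the results was not tested. The column names of the PBS libraries carried a suffix that those of the day 21 libraries lacked, and its part in the differences cannot be told apart from treatment. The reference libraries of mice given PBS 3 times lacked the suffix too. They differed from the PBS libraries in age and number of administrations as well. The 3 libraries of a group came from independent experiments, and the number of animals behind each was not stated.

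At day 21, 28 of 12647 tested genes differed from PBS at an adjusted p under 0.05, which is 0.221% of the genes tested (edgeR quasi-likelihood F test, Benjamini-Hochberg). Of these, 9 genes rose (0.0712% of genes tested) and 19 fell (0.150%). The rises included the adhesion receptor Selp and the tetraspanin Cd53, and the falls included 2 histone H2B genes, Clu and Vegfa. The 28 genes had groups that did not overlap, and so did 21.1% of all tested genes. At day 6 after the same dose, 22.2% of genes tested differed from the same PBS libraries. With library size alone as the scaling, 17 genes rose and 66 fell. With DESeq2, 725 genes passed (5.73%), of which 400 were higher (3.16%) and 325 lower (2.57%), and they included all 28.

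**Figure D1:**
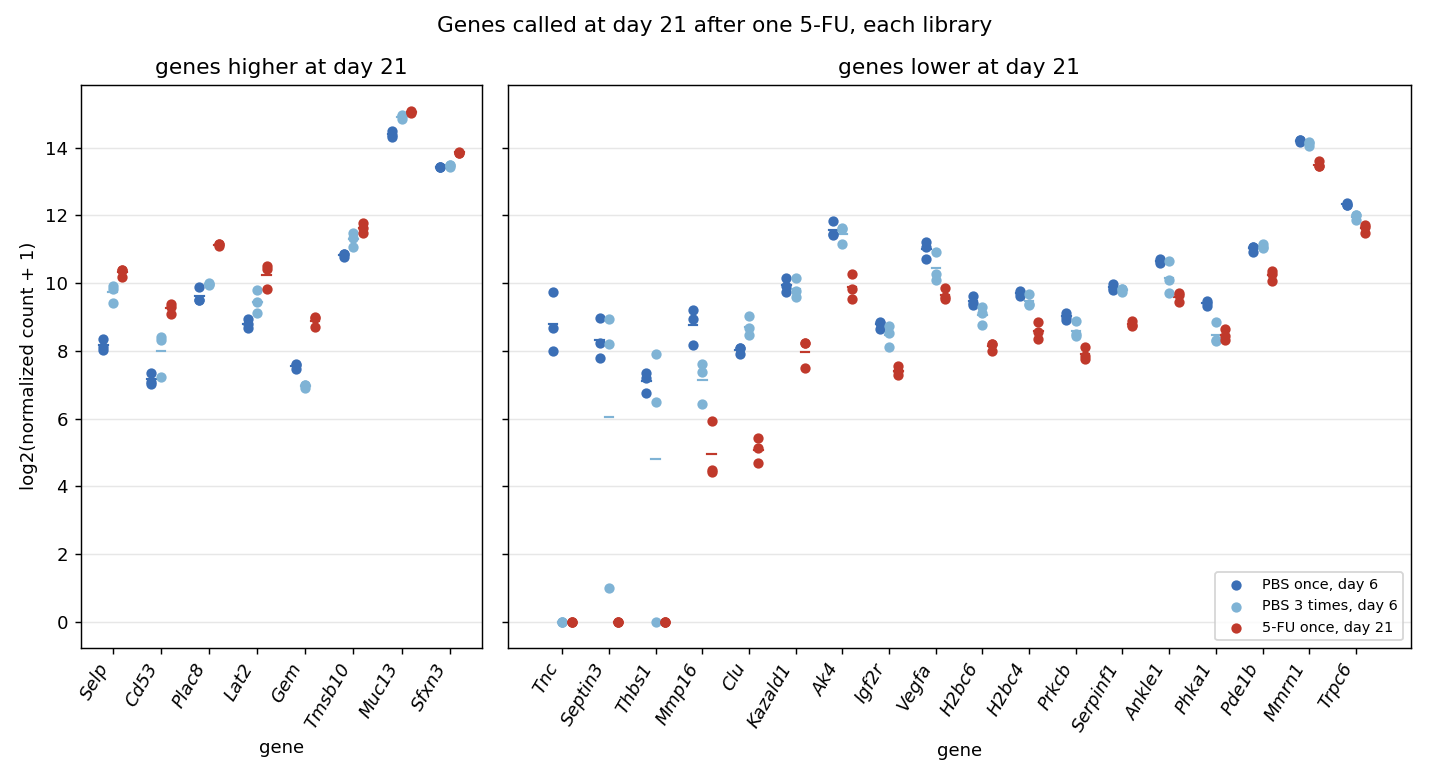
Normalized counts, as log2(normalized count + 1), of 26 of the 28 genes that differed at day 21, with a point for each library and a bar for the mean of 3 libraries on that scale. Dark blue marks mice given PBS once, light blue mice given PBS 3 times and red mice given 5-FU once at day 21. Red points lie above all dark blue points for the 8 genes at left and below them for the 18 at right, and Tnc, Septin3 and Thbs1 sit at 0 in all 3 red libraries.

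Selp, which encodes P-selectin, stored in platelets and endothelium and a known marker of aged HSCs, had 323, 258 and 278 normalized counts after PBS and 1341, 1168 and 1328 at day 21. Every day 21 value was above every PBS value, and Selp rose 4.46-fold (log2 fold change 2.16 ± 0.12 SE, adjusted p = 0.00282), with the smallest adjusted p of all genes. Selp lies at chr1:164115264-164150026 (GRCm38, RefSeq), and antisense gene models covered 14.1% of its exonic bases.

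In the group given PBS 3 times, Selp had 685, 910 and 969 normalized counts, between the levels of the PBS and day 21 groups. Against these libraries the day 21 values did not overlap, with a log2 fold change for Selp of 0.58 ± 0.15 (adjusted p = 0.147).

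Of the other surface and signaling genes that rose, Cd53 encodes a leukocyte tetraspanin and had 136, 129 and 163 normalized counts after PBS and 625, 543 and 667 at day 21. Cd53 rose 4.29-fold (2.10 ± 0.15, adjusted p = 0.00782). It was not called against PBS 3 times, where its raw counts were 160, 376 and 314. Over the alternative fits, that control among them, its log2 fold change ran from 1.18 to 2.21. Lat2, a membrane adaptor of immune receptor signaling, had 487, 443 and 409 normalized counts after PBS and 1437, 1359 and 915 at day 21. Lat2 rose 2.77-fold (1.47 ± 0.18, adjusted p = 0.0356). It was not called against PBS 3 times either, and over the alternative fits its log2 fold change ran from 0.79 to 1.64. Of its exonic bases, 36.3% are shared with the antisense gene Rfc2, whose reads cannot be separated if strand was not used in counting. Muc13, a transmembrane mucin, was abundant, at 23028, 21109 and 20416 normalized counts after PBS and 33307, 33566 and 34935 at day 21. It rose 1.58-fold (0.66 ± 0.07, adjusted p = 0.0169). PBS given 3 times left Muc13 at 31701, 31205 and 29412, close to the day 21 level, and against those libraries its log2 fold change was 0.14 ± 0.06 (adjusted p = 0.337).

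Plac8, a gene known from multipotent progenitors and myeloid cells, rose against both PBS groups. It had 935, 719 and 721 normalized counts after PBS, 1015, 976 and 1019 after PBS 3 times and 2171, 2288 and 2268 at day 21. It rose 2.83-fold over PBS once (1.50 ± 0.12, adjusted p = 0.0160), and against PBS 3 times the log2 fold change was 1.16 ± 0.08 (adjusted p = 0.00798). Gem, an inducible small GTPase that inhibits calcium channels, had 189, 175 and 193 normalized counts after PBS and 502, 415 and 511 at day 21. Gem rose 2.56-fold (1.36 ± 0.14, adjusted p = 0.0169) and was higher than after PBS 3 times as well (1.93 ± 0.15, adjusted p = 0.00798).

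The remaining rises were small. Tmsb10, an actin-sequestering thymosin, had 1841, 1843 and 1749 normalized counts after PBS and 3135, 2833 and 3469 at day 21, a rise of 1.74-fold (0.79 ± 0.10, adjusted p = 0.0365). Its day 21 values overlapped those of PBS 3 times (2134 to 2873). Sfxn3, a mitochondrial serine transporter, had 11015, 10944 and 10992 after PBS and 15073, 14776 and 14747 at day 21, a rise of 1.35-fold (0.43 ± 0.06, adjusted p = 0.0461). Just past the threshold on the other side lay Znrf1, with a log2 fold change of 0.51 and an adjusted p of 0.0517, and Fmo5, with 0.59 and 0.0519.

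Histone H2B, a core protein of the nucleosome, gave 2 of the 19 falls. H2bc6 had 781, 655 and 686 normalized counts after PBS and 293, 296 and 252 at day 21, and fell 2.52-fold (log2 fold change -1.34 ± 0.12, adjusted p = 0.0168). H2bc4 had 793, 839 and 877 after PBS and 374, 462 and 326 at day 21, and fell 2.16-fold (-1.11 ± 0.14, adjusted p = 0.0356). Each lies in the histone cluster of chromosome 13, H2bc6 at chr13:23583670-23621124 and H2bc4 at chr13:23684199-23692480. The family was looked at whole after these values were seen. The log2 fold changes of its 16 tested members ran from -1.34 to -0.30 with a median of -1.11, against -0.01 over all genes, and 12 members had an unadjusted p under 0.05 with lower values (6.23% of all genes). For 15 members, all but H2bc21, the day 21 values lay below every PBS value, and for 15 they lay below every value of PBS 3 times. Over all genes tested, 21.1% did not overlap PBS once and 21.8% did not overlap PBS 3 times, in either direction. H2B genes are near-identical in sequence, so that reads could be split between members and their values are not independent. Other gene models shared 11.2% of the exonic bases of H2bc6 on the same strand.

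Promoters of many H2B genes hold an octamer, ATTTGCAT, that the POU factor OCT1 (POU2F1) binds and that serves their transcription in S phase. The promoters below, from RefSeq sequence on GRCm38.p6, are shown because these genes moved together, with the 100 bases before the annotated start 5′ to 3′ on the gene's strand and the octamer in capitals. H2bc6 is the called gene at its downstream start (chr13:23585971-23586070, minus strand), H2bc8 (chr13:23571300-23571399, plus strand) and H2bc12 (chr13:22035721-22035820, plus strand) are members with the octamer, and H2bc23 (chr13:21810200-21810299, minus strand) is a member without it.
H2bc6: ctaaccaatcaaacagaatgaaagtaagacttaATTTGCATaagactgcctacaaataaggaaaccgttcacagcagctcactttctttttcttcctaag
H2bc8: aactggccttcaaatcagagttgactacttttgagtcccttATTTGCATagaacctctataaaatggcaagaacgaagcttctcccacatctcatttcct
H2bc12: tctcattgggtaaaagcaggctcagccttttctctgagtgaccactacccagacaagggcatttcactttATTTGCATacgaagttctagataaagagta
H2bc23: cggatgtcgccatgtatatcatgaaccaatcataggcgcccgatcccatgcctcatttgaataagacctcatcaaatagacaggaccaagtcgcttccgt

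The table of promoters, with windows of 250 bases before to 50 bases after the start, matched 14 of the 16 tested H2B genes with 15 windows. ATTTGCAT, searched on both strands, was in 7 of the 15 windows (46.7%) and in 570 of all 32851 windows (1.74%). The octamer began 67 bases before the downstream start in H2bc6, 59 in H2bc8 and 30 in H2bc12. The window at the upstream start of H2bc6 (chr13:23621045-23621344) held no octamer. Members with and without the octamer were low. H2bc8 had 276, 269 and 267 normalized counts after PBS and 99.1, 129 and 111 at day 21, and a log2 fold change of -1.26 ± 0.18 (adjusted p = 0.0584). H2bc23, without the motif in its window, had 467, 394 and 499 after PBS and 196, 237 and 157 at day 21, and a log2 fold change of -1.21 ± 0.18 (adjusted p = 0.0655). A match is a description of letters and not a binding site.

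**Figure D2:**
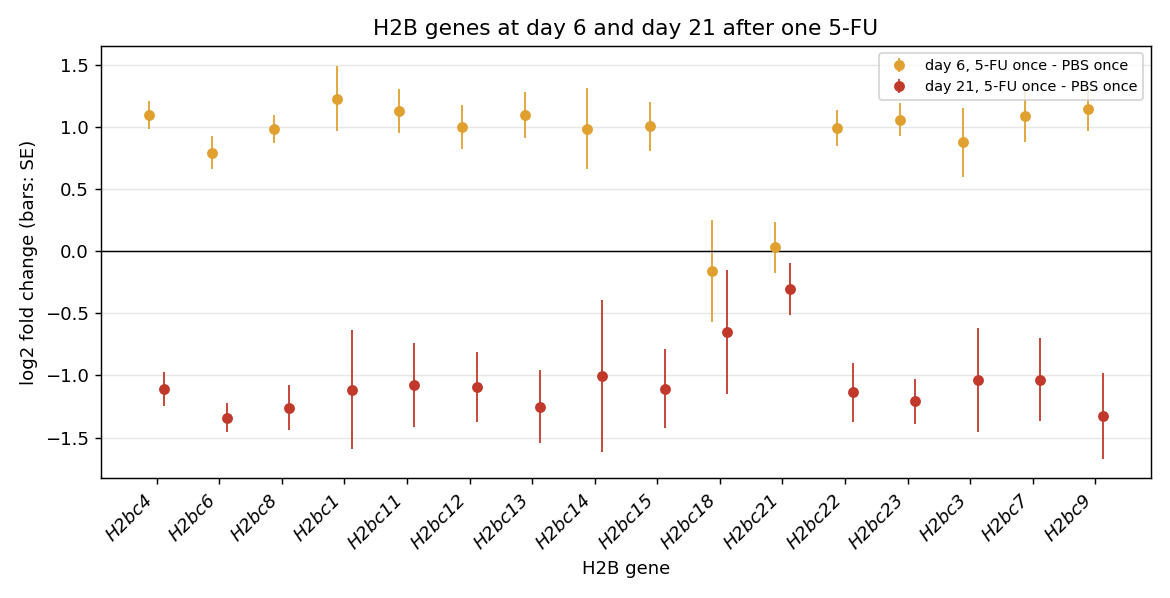
Log2 fold changes with SE of the 16 tested H2B genes against PBS once, at day 6 (yellow) and day 21 (red) after a single 5-FU administration, 3 libraries per group. At day 21 the points run from -1.34 to -0.30, all below 0, whereas most day 6 points lie near 1 above 0.

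The same H2B genes were high at day 6. H2bc4 had 1507, 1951 and 1862 normalized counts at day 6 (log2 fold change against PBS 1.10 ± 0.11, adjusted p = 0.00181) and H2bc6 had 1005, 1334 and 1309 (0.79 ± 0.13, adjusted p = 0.00789). Of the 16 members, 12 were higher than PBS at day 6, where 11.5% of all genes tested were. Their median log2 fold change was 1.00 at day 6 and -1.11 at day 21, and between the days H2bc4 differed by -2.21 ± 0.16 (adjusted p = 0.000693) and H2bc6 by -2.13 ± 0.14 (adjusted p = 0.000590).

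The wider lists of proliferation genes were also lower at day 21 than after PBS in most of their members. Of 26 clustered histone genes, all were lower than PBS at day 21, with a median log2 fold change of -0.70, and 15 had an unadjusted p under 0.05. Over all genes tested, 6.23% were lower at that p and 2.57% were called lower by DESeq2. Summed over the list, they had 9075 to 10363 normalized counts after PBS, 14375 to 15267 at day 6 and 5365 to 6322 at day 21, with 8326 to 10209 after PBS 3 times. Of 65 genes of G2 and mitosis, 62 were lower at day 21, 32 with an unadjusted p under 0.05 and 16 by DESeq2, with a median of -0.34. Their sum was 150312 to 153596 after PBS and 119818 to 138928 at day 21, which overlapped PBS 3 times (132404 to 167089). Of 53 genes of DNA replication and S phase, 48 were lower, 24 with an unadjusted p under 0.05 and 7 by DESeq2, with a median of -0.24, and of -0.07 against PBS 3 times.

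No member of the replication and mitosis lists passed the adjusted threshold. Mki67, the Ki-67 proliferation antigen, had 2113, 2076 and 2237 normalized counts after PBS and 1244, 1434 and 1501 at day 21 (-0.62 ± 0.10, adjusted p = 0.0657). PBS 3 times gave 1983, 1219 and 1826, which overlapped day 21. Cenpf, a kinetochore protein, had 918, 792 and 932 after PBS and 532, 588 and 504 at day 21 (-0.70 ± 0.11, adjusted p = 0.0655). Mcm5, a subunit of the replicative helicase, had 7023, 7414 and 7376 after PBS and 4868, 6000 and 5752 at day 21 (-0.39 ± 0.09, adjusted p = 0.132). Each of these genes was lower in all 3 day 21 libraries than in any PBS library. At day 6, 34 of the 65 mitosis genes and 36 of the 53 replication genes were higher than PBS, and none was lower. Over all genes tested at day 6, 11.5% were higher and 10.6% lower. In bulk libraries, fewer cycling cells and less RNA per cell cannot be told apart.

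**Figure D3:**
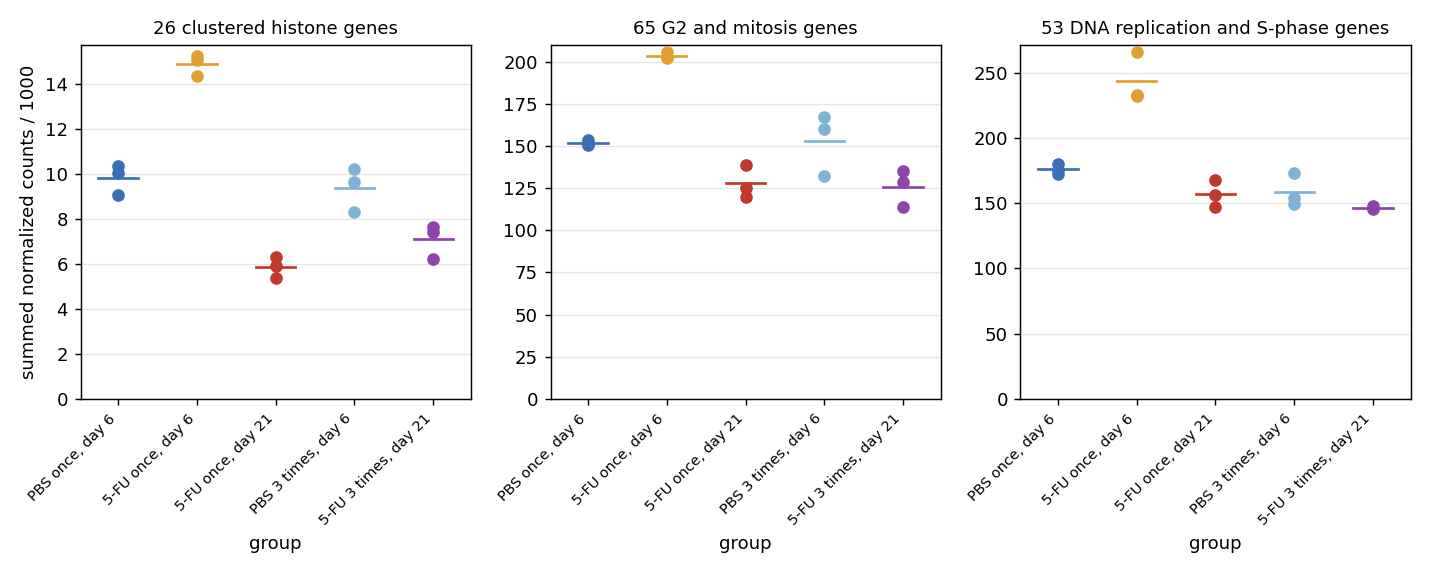
Summed normalized counts, divided by 1000, of 26 clustered histone genes, 65 G2 and mitosis genes and 53 DNA replication and S-phase genes in each library of 5 groups, with a bar for the group mean and the vertical axis from 0. The histone sums at day 21 after a single 5-FU administration (5365 to 6322) lie below both PBS groups, and those at day 6 (14375 to 15267) lie above them.

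Among the secreted proteins and growth factors that fell, Clu, the extracellular chaperone clusterin, had 272, 239 and 270 normalized counts after PBS and 24.8, 33.9 and 42.0 at day 21. It fell 7.75-fold (-2.94 ± 0.27, adjusted p = 0.0169), and it was also lower than after PBS 3 times (350, 407 and 519, -3.65 ± 0.27, adjusted p = 0.00798). Vegfa, the endothelial growth factor, had 1675, 2373 and 2124 after PBS and 925, 762 and 744 at day 21, and fell 2.54-fold (-1.35 ± 0.15, adjusted p = 0.0281). Vegfa was not called against PBS 3 times, and over the alternative fits its log2 fold change ran from -1.47 to -0.82. Serpinf1, which encodes the anti-angiogenic factor PEDF, had 920, 885 and 1013 after PBS and 428, 475 and 433 at day 21. Serpinf1 fell 2.11-fold (-1.08 ± 0.10, adjusted p = 0.0168), and was lower than after PBS 3 times (-1.01 ± 0.09, adjusted p = 0.0196).

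Igf2r, the receptor that removes IGF2 and sorts lysosomal enzymes, had 456, 398 and 465 normalized counts after PBS and 168, 187 and 156 at day 21, and fell 2.58-fold (-1.37 ± 0.14, adjusted p = 0.0169). Igf2r was the only called gene among 21 tested imprinted and quiescence genes. Kazald1, a secreted protein related to IGF-binding proteins, had 856, 1131 and 958 after PBS and 301, 297 and 178 at day 21, and fell 3.79-fold (-1.93 ± 0.21, adjusted p = 0.0256). Mmrn1, a platelet and endothelial multimerin, was the most abundant gene that fell, with 19165, 19076 and 18361 after PBS and 12332, 11178 and 11202 at day 21 (1.63-fold, -0.71 ± 0.07, adjusted p = 0.0169).

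Enzymes, channels and kinases made up a further group of falls. Ak4, a mitochondrial adenylate kinase, had 2745, 2785 and 3625 normalized counts after PBS and 746, 908 and 1241 at day 21, and fell 3.16-fold (-1.66 ± 0.20, adjusted p = 0.0356). Phka1, a regulatory subunit of phosphorylase kinase in glycogen breakdown, had 714, 637 and 678 after PBS and 317, 349 and 398 at day 21 (-0.93 ± 0.12, adjusted p = 0.0373). Phka1 was also low after PBS 3 times, at 316, 312 and 460, where the log2 fold change of day 21 was -0.03 ± 0.19. Prkcb (protein kinase C beta) had 515, 480 and 559 after PBS and 231, 277 and 216 at day 21 (-1.10 ± 0.14, adjusted p = 0.0356).

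The other falls were smaller or in genes with less clear roles in HSCs. Pde1b, a calmodulin-dependent phosphodiesterase, fell 1.74-fold from 1953 to 2160 normalized counts to 1067 to 1299 (adjusted p = 0.0398). Trpc6, a cation channel, fell 1.63-fold from 5009 to 5278 to 2842 to 3360 (adjusted p = 0.0380). Trpc6 was not called against PBS 3 times, and over the alternative fits its log2 fold change ran from -0.77 to -0.34. Ankle1, a nuclease known from hematopoietic cells, fell 2.06-fold from 1530 to 1659 to 696 to 833 (adjusted p = 0.0169), and its day 21 values overlapped the lowest PBS 3 times library (827). These genes, with Mmrn1, Phka1, Prkcb and Serpinf1, are outside the rule for named genes and were chosen after their values were seen.

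Falls of the largest ratio were in genes with 0 counts in all 3 day 21 libraries. Tnc, the matrix glycoprotein tenascin C, had 254, 854 and 408 normalized counts after PBS, and was at least 180-fold lower at day 21, against a floor of 3 counts per library (adjusted p = 0.0356). Septin3, a cytoskeletal GTPase, had 505, 220 and 299 after PBS and was at least 121-fold lower (adjusted p = 0.0169). Thbs1, the platelet and matrix protein thrombospondin 1, had 161, 147 and 106 after PBS and was at least 49.2-fold lower (adjusted p = 0.0256). Mmp16, a membrane-anchored matrix metalloproteinase, had 286, 494 and 585 after PBS and 21.4, 59.6 and 20.6 at day 21, and fell 13.4-fold (-3.73 ± 0.48, adjusted p = 0.0398).

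In PBS 3 times, Tnc had 0 counts in all 3 libraries, so that its difference depended on the control group. Thbs1 had 0, 239 and 89.9 normalized counts there, and Septin3 493, 296 and 1.02, which in each case overlapped PBS once. Some genes of marrow stroma were also lower at day 21 than after PBS. Cxcl12, the niche chemokine, had 478, 2000 and 1175 normalized counts in the PBS libraries, 117, 23.2 and 179 at day 21 and 0, 0 and 298 after PBS 3 times. Ibsp, a bone matrix protein, had 36.3, 108 and 89.0 after PBS and 1.13, 0 and 0 at day 21, and Sparc, osteonectin, had 46.0, 209 and 94.0 after PBS and 0, 6.62 and 15.4 at day 21. Lepr and Adipoq, which mark stromal progenitors and fat cells, had up to 382 and 42 counts in a PBS library and 0 in every day 21 library. Tnc, Cxcl12, Ibsp and Sparc each had their highest value in PBS replicate 2 and their lowest in PBS replicate 1, whereas Septin3 and Thbs1 were highest in PBS replicate 1 and Mmp16 in PBS replicate 3.

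Over the list of 21 stromal and endothelial genes the groups overlapped, with sums of 6619 to 10863 normalized counts after PBS and 7416 to 9372 at day 21, in which Pecam1 and Pdgfrb weighed most. Of 13 tested, 4 had an unadjusted p under 0.05 with lower values (6.23% of all genes) and 1 with higher values (7.09%). Col3a1 and Bglap had 0 counts in all 6 libraries. The part of stromal RNA in the falls of Tnc, Thbs1, Septin3 and Mmp16 was not tested.

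**Figure D4:**
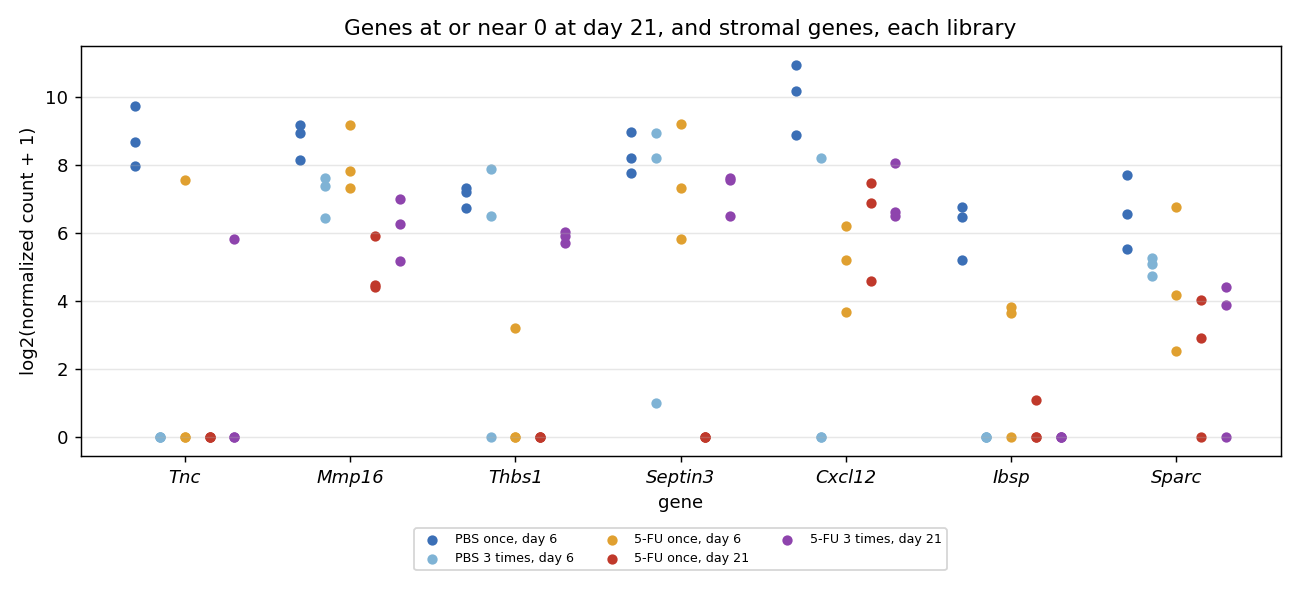
Normalized counts, as log2(normalized count + 1), of Tnc, Mmp16, Thbs1 and Septin3 and of the stromal genes Cxcl12, Ibsp and Sparc, with a point for each library of 5 groups. Tnc is above 0 in all 3 libraries of PBS once, at 254 to 854 normalized counts, and at 0 in all 3 of PBS 3 times, and Cxcl12 and Ibsp are highest in PBS once.

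Set beside day 6, the called genes fell into classes by their own tests against the same PBS libraries. Because the genes were called against those libraries, part of any agreement between the days is built in. Of the rises, Selp, Cd53, Tmsb10 and Gem were also higher at day 6, where 11.5% of all genes tested were higher than PBS. For Selp the day 6 level was 1191, 1197 and 1120 normalized counts (log2 fold change 2.04 ± 0.11). The difference between day 21 and day 6 was 0.11 ± 0.09 for Selp (adjusted p = 0.387), 0.07 ± 0.12 for Cd53 (0.683) and 0.15 ± 0.11 for Tmsb10 (0.344), and no difference between the days was detected. Between the days 26.0% of genes tested differed. Gem stood at 2366, 2266 and 2309 at day 6 and was lower by day 21 (-2.30 ± 0.11, adjusted p = 0.000447).

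Plac8, Muc13 and Lat2 were on opposite sides of PBS on the 2 days. Muc13 was at 8983, 8800 and 9788 normalized counts at day 6, below PBS (-1.22 ± 0.07, adjusted p = 0.000524), and rose between the days by 1.87 ± 0.07 (adjusted p = 0.000153). Plac8 was at 450, 354 and 517 at day 6 (-0.84 ± 0.17, adjusted p = 0.0150) and Lat2 at 278, 247 and 295 (-0.70 ± 0.12, adjusted p = 0.00880). Sfxn3 had no call at day 6 (-0.18 ± 0.08, adjusted p = 0.156). At day 6, 10.6% of all genes tested were lower than PBS.

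Of the falls, Mmrn1, Trpc6, Kazald1, Ak4 and Thbs1 were already lower at day 6 against the shared PBS libraries (10.6% of all genes). Mmrn1 was at 10922, 10122 and 9856 normalized counts at day 6 (-0.86 ± 0.06) and differed from day 21 by 0.15 ± 0.08 (adjusted p = 0.174). Kazald1, at 474, 424 and 535 at day 6, was lower still at day 21 (-0.90 ± 0.22, adjusted p = 0.0230). There were 11 falls with no call at day 6. Clu was at 120, 171 and 201 on that day (-0.65 ± 0.21, adjusted p = 0.0666) and Vegfa at 2446, 2208 and 3058 (0.33 ± 0.16, adjusted p = 0.175), and each was lower at day 21 than at day 6 (Clu -2.30 ± 0.36, adjusted p = 0.00547, and Vegfa -1.68 ± 0.15, adjusted p = 0.00116).

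**Figure D5:**
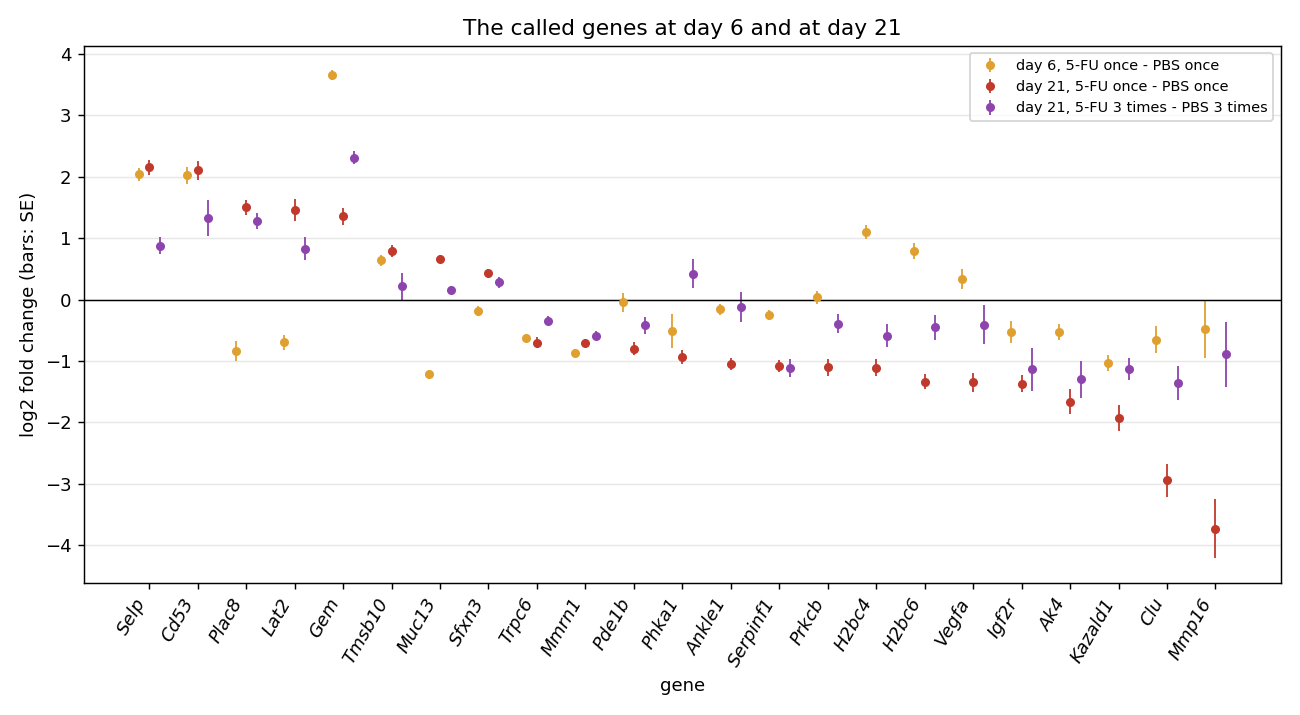
Log2 fold changes with SE of 23 of the 28 genes at day 6 and day 21 after 5-FU once, each against PBS once, and at day 21 after 5-FU 3 times against PBS 3 times, 3 libraries per group. Tnc, Septin3 and Thbs1, at 0 counts at day 21, are left out. Selp and Cd53 have near-equal values on both days, and Plac8, Lat2 and Muc13 lie below 0 at day 6 and above 0 at day 21.

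Mice given 5-FU 3 times and isolated at day 21 share no library with this comparison. Their PBS 3 times controls were isolated at day 6, so treatment and day of isolation differed together here as well. Against PBS 3 times, 6 genes passed there (0.0475% of those tested), and Gem and Plac8 were the called genes among them. Of the 28 genes, 27 were tested and 26 had the same sign, the exception being Phka1 (0.42 ± 0.23). In 19 the unadjusted p was under 0.05 in the same direction, where 13.7% of all genes had such a p in either direction, and in 18 the groups did not overlap (21.4% of all genes). Plac8 had 2712, 2607 and 1992 normalized counts in that group (log2 fold change 1.28 ± 0.13, adjusted p = 0.0494), Gem 627, 601 and 632 (2.31 ± 0.11, adjusted p = 0.00115) and Serpinf1 398, 500 and 340 (-1.12 ± 0.15, adjusted p = 0.0648).

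In the test of the difference between the 5-FU effects of 1 and 3 administrations over 12 libraries, no gene passed (edgeR), with 9.66% of genes at an unadjusted p under 0.05 and 219 genes called by DESeq2. Of the 28 genes, which were called in a contrast that enters this test, 20 had an unadjusted p under 0.05 for the difference. The log2 fold change of Selp was larger by 1.28 ± 0.19 after 1 administration than after 3 (adjusted p = 0.207). At day 21 its raw counts were 1190, 1411 and 1550 after 1 administration (size factors 0.888, 1.21 and 1.17). After 3 they were 1440, 1437 and 1458 (size factors 0.932, 0.950 and 0.879). Raw counts of Selp were 302, 239 and 225 after PBS once, and 739, 1016 and 949 after PBS 3 times. The smaller log2 fold change after 3 administrations thus did not go with a lower day 21 level.

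With PBS 3 times as the control for the same day 21 libraries, 5 genes passed (0.0394%), and Clu, Gem, Plac8 and Serpinf1 were the 4 shared with the 28. The day 21 values of 22 of the 28 genes did not overlap PBS 3 times in the same direction, 8 of 9 rises and 14 of 19 falls, where 21.8% of all genes did not overlap. Both comparisons share the day 21 libraries, and the genes were called against PBS once. The PBS groups differed in column suffix, age and number of administrations, and the part of each was not tested. The median log2 fold change of the 9 rises was 1.47 against PBS once and 0.79 against PBS 3 times, and that of the 16 falls tested in both was -1.11 and -0.87. Leaving out 5-FU replicate 1 left 1 call, leaving out PBS replicate 1, 2 or 3 left 2, 1 and 3, and leaving out 5-FU replicate 3 left 18. Selp passed in each of these fits.

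Of 30 genes of HSC identity, 9 had an unadjusted p under 0.05 with higher values (7.09% of all genes) and 4 with lower (6.23%). None passed adjustment. Kit, the stem cell factor receptor, had 33502, 31099 and 28575 normalized counts after PBS and 36625, 39955 and 38025 at day 21 (0.30 ± 0.07, adjusted p = 0.155), whereas at day 6 it was lower (-0.86 ± 0.07, adjusted p = 0.00111). Ly6a (Sca-1) had 7695, 7352 and 8078 after PBS and 10440, 12018 and 12563 at day 21 (0.60 ± 0.09, adjusted p = 0.0618), but PBS 3 times gave 10872, 12006 and 12066, and a log2 fold change of -0.000832 ± 0.09. Slamf1 (0.09 ± 0.11) and Procr (-0.06 ± 0.10) differed by less than their SE.

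Of 27 tested megakaryocyte and platelet genes, 23 were lower at day 21, with a median of -0.28. An unadjusted p under 0.05 was reached by 9 with lower values (6.23% of all genes) and by 2, Selp and Nfe2, with higher (7.09%). The sum over the 29 genes of the list went the other way, at 78245 to 83705 normalized counts after PBS and 84142 to 100913 at day 21. Most of that sum was Nfe2, a transcription factor of megakaryocytes, with 56940, 62077 and 59774 normalized counts after PBS and 67340, 81542 and 64432 at day 21 (0.25 ± 0.09, adjusted p = 0.296). Itga2b (CD41) had 2221, 2108 and 2473 normalized counts after PBS and 2030, 1765 and 1824 at day 21 (-0.28 ± 0.10, adjusted p = 0.296). At day 6 its level was 631, 529 and 696 (-1.86 ± 0.12, adjusted p = 0.000597), and the median of the list at day 6 was -0.96. Pf4, platelet factor 4, had 313, 307 and 396 after PBS and 233, 185 and 190 at day 21 (-0.74 ± 0.17, adjusted p = 0.132).

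In metabolism, Pfkfb3, which sets the fructose-2,6-bisphosphate level that drives glycolysis, had 5102, 4161 and 4603 normalized counts after PBS and 3821, 4519 and 4844 at day 21 (-0.07 ± 0.12, adjusted p = 0.821), with overlapping groups. Prmt1, an arginine methyltransferase, had 3274, 3328 and 3207 after PBS and 3044, 3467 and 3328 at day 21 (0.00 ± 0.08, adjusted p = 0.992), although it was higher at day 6 (0.60 ± 0.07, adjusted p = 0.00255). Of 32 glycolysis genes, 2 were higher and 1 lower at an unadjusted p under 0.05, and of 76 nuclear oxidative phosphorylation genes 1 and 1. The medians were -0.00440 and -0.09. Over all genes tested, 7.09% were higher and 6.23% lower at that p. At day 6, 32 of the 76 were higher (11.5% of all genes), with a median of 0.31. Of 58 ribosome biogenesis genes none had an unadjusted p under 0.05 at day 21, and DESeq2 called none. At day 6, 20 of them were higher (11.5% of all genes).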

How the data were processed

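RNA of 3000 to 3500 sorted HSCs per library was amplified with SMART-Seq v4, made into libraries with Nextera XT and sequenced as single-end reads. The authors aligned reads to mm10 with TopHat2 2.0.13 and iGenomes annotation, quantified with Cuffdiff of Cufflinks 2.2.1 and deposited counts, whole numbers without normalization, for 21000 gene symbols. How these whole numbers were made, and whether strand was used, is not given in the sources used here.

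The analysis of counts used R 4.3.3 and edgeR 4.0.16, with its filterByExpr filter, TMM scaling and quasi-likelihood F test, with Benjamini-Hochberg adjustment over all genes kept and a threshold of 0.05. Fits used the libraries of the groups compared. Values given per library are normalized counts, which are counts divided by TMM size factors over the 21 libraries. An SE is the log2 fold change divided by the root of F. An exact permutation test over the 20 assignments of 6 libraries cannot go below p = 0.1, and all 28 called genes were at that p. Alternatives were DESeq2 1.42.0, other scalings and filters, other control groups, a replicate block, each library left out and an unadjusted threshold, the last added after seeing the data.

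On simulated counts of the 12647 genes with 200 changed, edgeR recovered 74% of genes set to 0.25-fold, 56% at 0.5-fold, 78% at 2-fold and 88% at 4-fold, with 5.73% false calls. DESeq2 recovered 88%, 66%, 80% and 92%, with 21.3% false calls. The counts were drawn from edgeR dispersions of the same libraries, in a single draw and without batch or replicate effects. These rates need not hold for the real libraries or rank the tools.

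Members and gene lists were chosen with earlier results of these data known. Genes are named by rule, namely Pfkfb3, Prmt1, Kit, Slamf1, Procr, Ly6a, Mki67 and Itga2b, the 10 largest rises and falls among called genes with a mean of at least 100 normalized counts and no overlap, and up to 4 called genes per list and direction. Of the 28 called genes, 2 are not reported here by name. List members shown beyond these were chosen after their values were seen. Positions and promoters are from RefSeq on GRCm38.p6, which matched all 28 genes, and shared exons from GENCODE vM21.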

Additional observations from a re-analysis of the deposited data

Results flagged for a closer look

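HSCs of untreated 2-year-old mice entered no comparison above, and 6 of the 26 called genes reported by name stood higher in all 3 of those libraries than in all 6 PBS libraries, as did 3.79% of the 12647 genes tested at day 21. Of the genes that rose at day 21, Selp had a mean of 1814 normalized counts in old HSCs, Gem 431.8 and Sfxn3 12574. Of the genes that fell, Mmrn1 had 21145, Clu 822.7 and Thbs1 1995, so that old HSCs lay on the side of PBS away from day 21 for these 3. The old libraries had 0 counts of 4 Y-linked genes, which summed to at least 5074 normalized counts in every PBS library, and the part of sex in these levels was not tested.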

How the results depend on the processing

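The 28 genes kept their direction in every alternative in which they were tested, and their calls depended on the setting. RLE scaling gave 28 calls and the other filters 29 and 29, DESeq2 gave 725, library size alone 83, a fit of all 21 libraries 257, all 6 PBS libraries as control 217, PBS 3 times as control 5 and the unadjusted threshold 1685. Leaving out a library gave 1 to 32 calls, with 32 and 18 without 5-FU replicates 2 and 3 and at most 3 without any other. Same-numbered libraries had deviations that correlated at 0.0285, 0.0184 and 0.00543, and not each correlated best with its own number, so the numbers were not taken as pairs, and a fit with a replicate block gave 3 calls (Ak4, Cd53 and Selp). Genes near 0 changed sign without a call. The log2 fold change of Prmt1 was -0.000846 with at least 10 counts in every library, -0.0666 with library size alone, -0.0475 against PBS 3 times, -0.0194 against all 6 PBS libraries and -0.0352 to 0.0535 with a library left out. That of Pfkfb3 was -0.152 to 0.0168 with a library left out, and that of Ly6a was -0.000832 against PBS 3 times. For 5-FU 3 times at day 21, 6 calls became 3 with RLE, 592 with DESeq2, 23 with at least 10 counts in every library, 0 with the replicate block and 1 to 4 with a library left out. For PBS 3 times against PBS once, 2 calls became 547 with DESeq2, 0 with the block and 0 to 1 with a library left out. The interaction had 0 calls, 219 with DESeq2, and 0 to 1 with a library left out. Leaving out a library gave 1563 to 1947 calls at day 6 (2827 with all) and 1736 to 2978 between the days (3272 with all). Leaving out 5-FU replicate 2 of day 6 gave the lowest count in both, and the 3 lowest counts between the days, 1926, 1736 and 1822, came from leaving out a day 6 library. With fewer libraries the fits have fewer degrees of freedom, and other causes were not tested.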

Other observations

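Further lists held genes that differed at an unadjusted p under 0.05 without a call, and the genes named here were chosen after their values were seen. Over all genes tested, 7.09% were higher and 6.23% lower at that p. Of 28 tested immediate early genes, 8 were lower and 1 higher at that p, with a median log2 fold change of -0.20. Jun, a subunit of the AP-1 factor, had 1438, 1282 and 1605 normalized counts after PBS and 1003, 597 and 744 at day 21 (-0.89 ± 0.19, adjusted p = 0.114). The day 21 values of Jun were below every PBS value, and after 5-FU 3 times they were 1576, 1490 and 1581. Fosb, which pairs with Jun in AP-1, had 91.9, 36.7 and 87.8 normalized counts after PBS and 4.51, 3.31 and 0.857 at day 21 (-4.61 ± 0.80, adjusted p = 0.0740). Its raw counts at day 21 were 4, 4 and 1, around the floor of 3, so the size of this fall was not read. Of 77 tested interferon-stimulated genes, 11 were higher (7.09% of all genes) and 7 lower (6.23%) at that p, with a median of -0.04. Slfn2, a schlafen known from lymphocyte quiescence, had 512, 452 and 487 normalized counts after PBS and 271, 296 and 228 at day 21 (-0.87 ± 0.14, adjusted p = 0.0657), and 849, 974 and 874 at day 6.

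Of 22 tested genes that are targets of fluoropyrimidines or handle them, 8 were lower (6.23% of all genes) and 2 higher (7.09%) at that p. Slc29a1, the nucleoside transporter ENT1, had 34132, 32957 and 27798 normalized counts after PBS and 21293, 24695 and 19559 at day 21 (-0.54 ± 0.11, adjusted p = 0.107), and 46116, 53949 and 46568 at day 6. Smug1, a DNA glycosylase that removes uracil, had 279, 279 and 245 normalized counts after PBS and 514, 530 and 432 at day 21 (0.87 ± 0.13, adjusted p = 0.0624). Tyms, thymidylate synthase, had 776, 655 and 734 normalized counts after PBS and 571, 473 and 602 at day 21 (-0.40 ± 0.12, adjusted p = 0.241). Of 42 lysosome and autophagy genes, 7 were higher (7.09% of all genes) and 0 lower (6.23%) at an unadjusted p under 0.05 (edgeR). By DESeq2, 3 were higher (3.16% of all genes) and 0 lower (2.57%). Sqstm1, the autophagy receptor p62, had 5933, 5656 and 5906 normalized counts after PBS and 7246, 7480 and 7631 at day 21 (0.35 ± 0.07, adjusted p = 0.0850). Of 34 tested genes typical of old HSCs, 6 were higher (7.09% of all genes) and 7 lower (6.23%) at an unadjusted p under 0.05. At any p, 13 were higher and 21 lower, with a median log2 fold change of -0.24, and of -0.62 against PBS 3 times. The sum of the list went the other way against PBS once. Summed over the 40 genes of that list, PBS libraries had 57780 to 59577 normalized counts, day 21 libraries 64462 to 67631, libraries of PBS 3 times 72801 to 77399 and old HSCs 105761 to 116846, so that the day 21 sums lay between those of the PBS groups.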
